A study of Mus musculus with 6 samples.

Results

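The 45 genes described here encode protein kinases, protein phosphatases and the subunits, scaffolds and inhibitors that belong to them. They were chosen by a rule on gene symbols, with earlier results of these data known. The rule takes every row of the deposited expression table whose symbol starts with the stem of a MAP kinase cascade (Map2k to Map4k, Mapk), calmodulin-dependent kinase (Camk), protein kinase A, C, D or G or AMPK (Prk), Cdk, Dyrk, Stk or casein kinase (Csnk) gene, or of a serine/threonine phosphatase (Ppp1 to Ppp6), tyrosine phosphatase (Ptpn, Ptpr) or dual-specificity phosphatase (Dusp) gene, with the Cdkn inhibitors left out. These genes are 45 of 2404 genes in that table, and 45 of 294 protein-coding genes that the same rule finds in the RefSeq annotation. The other 249 were not analysed here.

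Hippocampal RNA was sequenced from adult male C57BL/6 mice that received CORT or vehicle, with 3 libraries per group. The methods give corticosterone at 40 mg/kg, injected under the skin daily for 36 days in mice aged 7 to 8 weeks, and vehicle injections for the controls, whereas the submitters' label names cortisone as the agent. No group carried an engineered allele, and each value is an average over all cell types of the isolated hippocampus. In such bulk tissue, fewer cells of a type and less RNA per cell cannot be told apart. The table holds genes that the authors had already called as different between the groups, so a test of the same libraries is no independent evidence that a listed gene differed. The values are TPM (transcript abundances scaled to a fixed total per library), which also correct for transcript length and keep no read depth.

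Protein kinases attach phosphate to proteins and phosphatases remove it, and the state of a signalling pathway depends on the balance between them. In the MAP kinase cascade a chain of kinases ends in ERK, JNK or p38, and many dual-specificity phosphatases switch these last kinases off. In hippocampal neurons, calmodulin-dependent kinase II and protein kinase A take part in synaptic plasticity, while phosphatases such as PP1 find their substrates through a large set of regulatory subunits. Glucocorticoids act through nuclear receptors that bind DNA and are known to induce several phosphatase genes.

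Of the 45 genes, 11 were higher and 4 were lower in CORT-treated mice, and 30 did not pass the test (limma on log2(TPM + 1), Benjamini-Hochberg adjusted p under 0.05 over 2241 listed genes). The share past the threshold was 33.3% (15 of 45), against 50.6% of all genes tested. The background in single directions was 25.8% higher and 24.7% lower. Centring each library on its median changed the split from 11 higher and 4 lower to 8 and 9. A correction for transcript GC content changed it to 6 and 8, so the excess of higher over lower calls was not seen under these corrections. The split over all tested genes also moved, from 579 higher and 554 lower to 485 and 772 with median centring. With the GC correction it was 409 and 486. Both corrections were fitted over the listed genes alone, which the authors had already called as different. They can therefore also remove part of a treatment difference, and the size of that part was not tested. In the remaining settings that kept all libraries, 9 to 11 genes were higher and 3 or 4 were lower. The groups did not overlap for 31 of the 45 (68.9%), against 69.8% of the tested genes.

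The changes were small. Fold changes below are log2 differences of TPM + 1, CORT minus vehicle, with the standard error of the fit, and ranged from -0.28 to 0.71. No kinase or phosphatase gene reached an absolute value of 1, as 68 of the tested genes did (3.03%), and 5 reached 0.5. The median absolute value was 0.18, against 0.26 over all tested genes, and the median signed value was -0.04, against 0.05. These genes were well expressed: their mean TPM over the 6 libraries ran from 7.95 (Dusp11) to 607 (Prkar1b) with a median of 43.3, against 21.4 for the tested genes. The summed TPM of all 45 was 4079, 3836 and 3984 in the vehicle libraries and 3838, 3815 and 3856 in the CORT libraries, and these ranges overlap. The median coefficient of variation was 7.23% among vehicle libraries and 4.10% among CORT libraries.

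**Figure D1:**
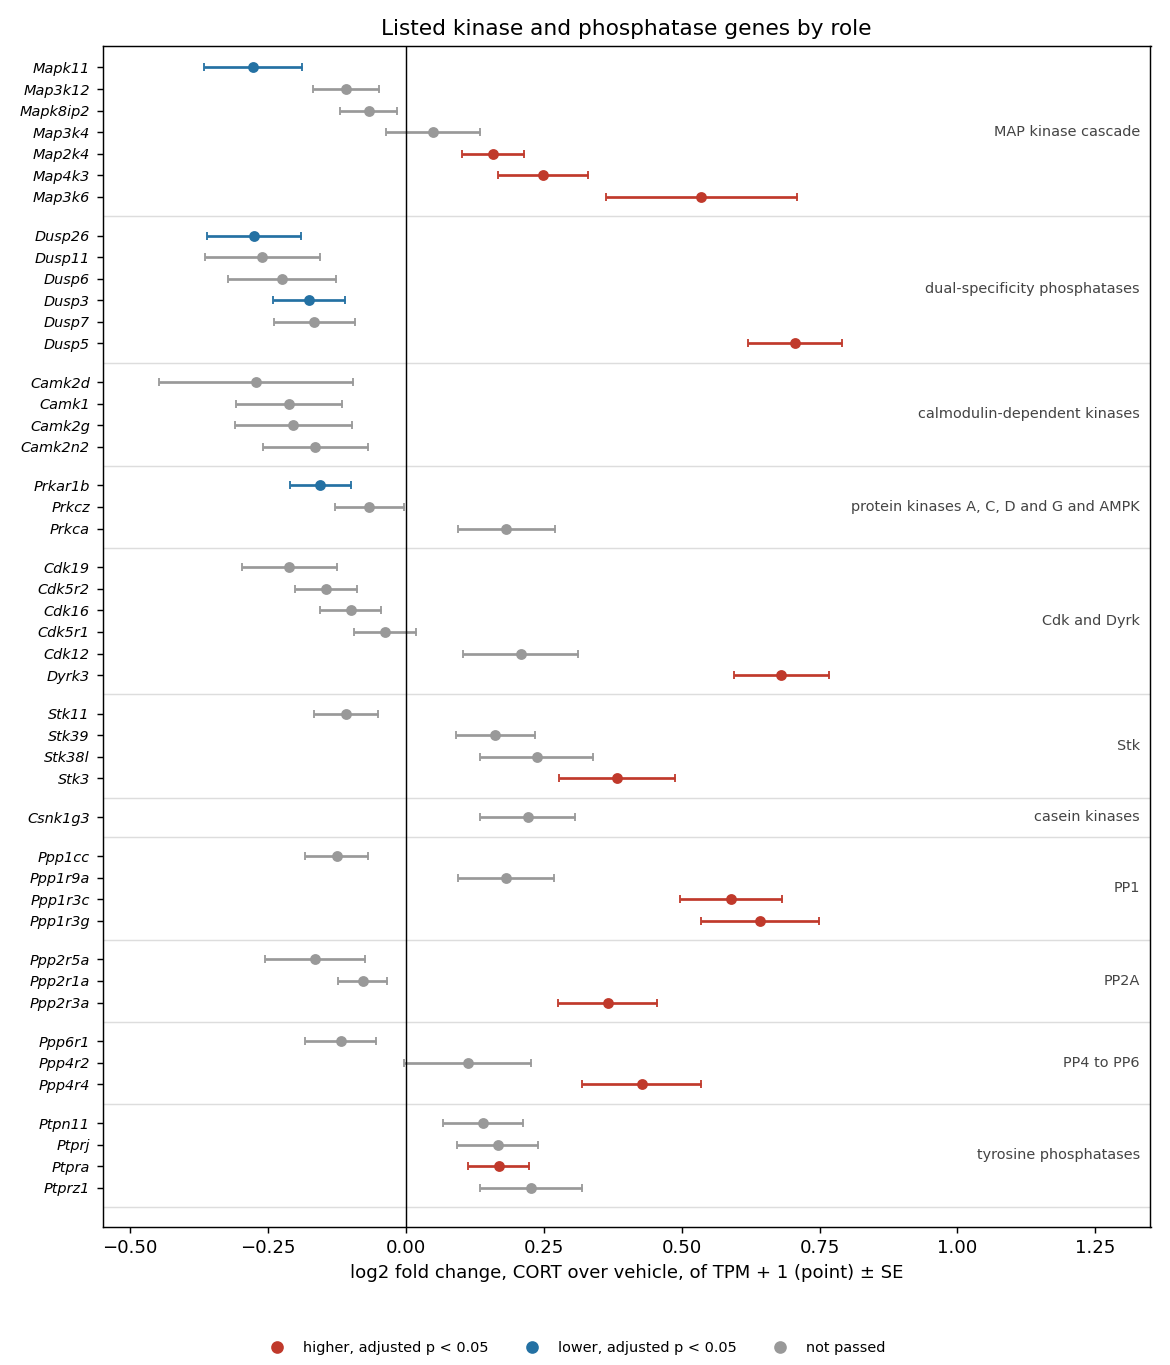
Log2 fold change of TPM + 1, CORT over vehicle (x axis), of each of the 45 genes (rows, grouped by role), with bars for ± 1 SE and colour for the limma call (red higher, blue lower, grey not passed). The points run from -0.28 for Mapk11 and Dusp26 to 0.71 for Dusp5, and every group holds at least 1 grey point.

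Dual-specificity phosphatases remove phosphate from both the tyrosine and the threonine of MAP kinases, and 6 of 24 annotated genes were in the table. Dusp5, which acts on ERK in the nucleus, rose and was the largest change of all 45. Dusp26 and Dusp3 fell. The values of Dusp6, Dusp7 and Dusp11 lay below vehicle in every CORT library but did not pass the test. The groups overlapped in none of the 6, and there was no overlap in 69.8% of all tested genes. With 1 higher and 2 lower, 3 of the 6 passed, where 50.6% of all tested genes did. No scaling alternative turned the sign of any of the 6.

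Dusp5 stood at 19.8, 19.5 and 23.2 TPM in the vehicle libraries and at 35.0, 34.1 and 34.5 TPM in the CORT libraries. The lowest CORT library was well above the highest vehicle library, and the CORT libraries lay within 1 TPM of each other. The means were 20.8 ± 2.05 and 34.5 ± 0.423 TPM (SD, n = 3), a rise of 65.7%. The log2 fold change was 0.71 with an SE of 0.085 (limma adjusted p = 0.000579), and the call was kept under all 14 alternative settings, with a largest adjusted p of 0.0037.

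Dusp6 and Dusp7 encode phosphatases that hold and inactivate ERK in the cytoplasm. Dusp6 measured 43.7, 44.4 and 44.1 TPM in vehicle and 32.4, 38.2 and 42.9 TPM in CORT libraries. The vehicle libraries were nearly equal while the CORT libraries were spread, and CORT library 3 came within 1 TPM of vehicle (log2 fold change -0.22, SE 0.098, limma adjusted p = 0.0725). Without that library the gene passed (-0.32, limma adjusted p = 0.0347), as it did with median centring (0.0496) and the GC correction (-0.31, limma adjusted p = 0.0413). Dusp7 measured 50.4, 49.7 and 44.6 TPM against 44.1, 43.1 and 41.3 TPM (-0.17, SE 0.074, limma adjusted p = 0.0752) and passed without vehicle library 3 (-0.22, limma adjusted p = 0.0327). The ratio of Dusp5 to Dusp6 TPM was 0.453, 0.440 and 0.526 in vehicle and 1.08, 0.893 and 0.804 in CORT libraries. The Dusp5 value was thus below that of Dusp6 in every vehicle library and near it in the CORT libraries, as a description of values already tested singly. Against Dusp7, the Dusp5 value was lower in every vehicle and every CORT library.

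The promoter windows of this pair are shown because the genes encode phosphatases of the same kinase and their transcripts differed in direction. Each runs from 250 bases before to 50 bases after the annotated start (RefSeq, GRCm38.p6, a build other than the one the authors aligned to), 5′ to 3′ on the gene's strand. Capitals mark TGTTCT or AGAACA (an arm of the glucocorticoid response element), TGACG or CGTCA (the core of the cAMP response element) and the CArG box bound by serum response factor.
Dusp5 at chr19:53528895-53529194, plus strand: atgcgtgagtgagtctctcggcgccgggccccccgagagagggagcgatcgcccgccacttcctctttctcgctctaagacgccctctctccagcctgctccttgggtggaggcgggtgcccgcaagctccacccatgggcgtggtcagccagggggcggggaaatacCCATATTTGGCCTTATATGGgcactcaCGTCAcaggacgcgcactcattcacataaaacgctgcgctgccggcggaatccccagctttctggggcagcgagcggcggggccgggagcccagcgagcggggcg
Dusp6 at chr10:99262981-99263280, plus strand: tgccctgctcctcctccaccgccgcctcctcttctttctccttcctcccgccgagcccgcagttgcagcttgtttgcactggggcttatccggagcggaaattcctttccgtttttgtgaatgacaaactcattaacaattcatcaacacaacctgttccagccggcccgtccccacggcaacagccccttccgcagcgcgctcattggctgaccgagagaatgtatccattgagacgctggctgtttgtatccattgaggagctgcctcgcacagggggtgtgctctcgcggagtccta
The Dusp5 window held 2 CArG boxes side by side and 1 CGTCA, while the Dusp6 window held none of these motifs. The CArG box was added to the search after this sequence had been seen. It was present in 1.63% of all 32851 promoter windows, in 1.79% of the 2403 windows of listed genes and in 1 of the 51 windows found for 39 of the 45 genes, that of Dusp5. A match is a description of letters and not a bound site.

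Dusp26, an atypical phosphatase found mainly in brain, measured 69.0, 56.5 and 61.9 TPM in vehicle and 54.2, 51.1 and 48.7 TPM in CORT libraries. Dusp3, a small phosphatase of ERK and JNK, measured 102, 98.8 and 113 TPM against 94.7, 91.3 and 91.6 TPM. In both, the highest CORT library lay just below the lowest vehicle library. Dusp26 fell by 0.28 on the log2 scale (SE 0.085, limma adjusted p = 0.0286) and Dusp3 fell by 0.18 (SE 0.066, limma adjusted p = 0.0491). Dusp26 lost its call without vehicle library 1 (adjusted p = 0.0815), CORT library 2 (0.0691) or CORT library 3 (0.0778), all by limma, and with the GC correction. Dusp3 kept its call in 6 of 14 alternatives. Dusp11, an RNA 5′ phosphatase rather than a MAP kinase phosphatase, measured 8.45, 8.26 and 9.54 TPM against 6.91, 7.78 and 6.73 TPM (-0.26, SE 0.105, limma adjusted p = 0.0600). It passed as lower in 4 of 14 alternatives, with the GC correction at -0.44 (limma adjusted p = 0.00617).

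The MAP kinase cascade had 7 of 49 annotated genes in the table, of which 3 rose, 1 fell and 3 did not pass. Past the threshold were 57.1% of the 7, against 50.6% of all tested genes. The genes that rose were Map4k3 (GLK), Map3k6 (ASK2) and Map2k4 (MKK4, which activates JNK and p38), at the upper and middle levels. Map3k12 and Map3k4, at the level of Map3k6, did not pass (-0.11 and 0.05). Mapk11, which encodes p38 beta, fell. No call among these 7 was kept under all alternatives.

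Map3k6 measured 8.52, 6.84 and 5.60 TPM in vehicle and 10.1, 13.2 and 8.50 TPM in CORT libraries. The groups overlapped, since CORT library 3 lay at the level of vehicle library 1, and the spread was the widest of the 15 genes past the threshold (0.54, SE 0.174, limma adjusted p = 0.0335). Without CORT library 2 the value was 0.38 (limma adjusted p = 0.0996). Map3k6 is also in a list of 16 genes known to respond to glucocorticoids, of which 14 were in the table. Of these 11 rose, Map3k6 among them, and 2 fell, with a median of 0.65. The share past the threshold was 92.9%, against 50.6% of all tested genes. The list was chosen with earlier results of these data known, so it is no independent evidence for the Map3k6 call.

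Map4k3 measured 32.2, 34.6 and 38.1 TPM against 40.1, 43.5 and 41.3 TPM (0.25, SE 0.081, limma adjusted p = 0.0341). Map2k4 measured 113, 119 and 125 TPM against 132, 132 and 133 TPM (0.16, SE 0.056, limma adjusted p = 0.0442). The CORT libraries of Map2k4 were almost identical, and all were above the highest vehicle library. After the GC correction the Map2k4 value was -0.0048 and that of Map4k3 was 0.083, and neither passed.

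Mapk11 measured 21.0, 17.6 and 19.6 TPM in vehicle and 15.7, 16.0 and 15.7 TPM in CORT libraries, a fall of 0.28 on the log2 scale (SE 0.089, limma adjusted p = 0.0329). It kept its call in 10 of 14 alternatives and lost it without vehicle library 1 (limma adjusted p = 0.0908) and when any single CORT library was left out. Map3k12 (DLK, a kinase of axonal stress signalling) gave -0.11, Mapk8ip2 (a JNK scaffold) -0.07 and Map3k4 0.05. The vehicle libraries of Map3k12 were tight at 62.9, 63.3 and 62.9 TPM, and its CORT libraries measured 56.8, 58.7 and 59.8 TPM (limma adjusted p = 0.122). After the GC correction Map3k12 passed as lower (-0.21, limma adjusted p = 0.0243). The value of Map3k4 turned to -0.0069 with quantile normalization, to -0.0023 with median centring and to -0.0057 without vehicle library 1.

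The genes around the cascade were read from lists. Of 34 MAP kinase effectors and target genes, 11 were in the table, of which 7 fell, 1 rose and 3 did not pass, with a median of -0.32. The share past the threshold was 72.7%, against 50.6% of all tested genes. Fos measured 18.5, 16.9 and 18.5 TPM in vehicle and 10.7, 13.0 and 11.4 TPM in CORT libraries (-0.58, limma adjusted p = 0.00278). Egr1, another immediate-early transcription factor downstream of ERK, measured 110.2, 99.8 and 107 TPM against 87.9, 77.2 and 82.6 TPM (-0.35, limma adjusted p = 0.00542). Fosb gave -0.62. The 1 riser was Gadd45g, a stress-inducible activator of MAP3K4, at 0.63. Of 35 genes of the Ras input, 7 were in the table, and 2 rose, 3 fell and 2 did not pass (71.4% past the threshold). Spry2, a feedback inhibitor of receptor signalling to ERK, fell from 37.9 ± 1.12 to 28.5 ± 0.412 TPM (SD, n = 3), while Ksr1, an ERK scaffold, rose from 70.5 ± 3.77 to 84.1 ± 2.38 TPM. Dusp5 thus rose in the same libraries in which Fos, Egr1, Spry2 and the value of Dusp6 were lower. Ksr1, Rasal2 (0.41) and Gadd45g rose in those libraries as well. The value of Arc, also in the list of effectors and targets, was above vehicle in every CORT library. It did not pass (0.21, limma adjusted p = 0.0559).

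**Figure D2:**
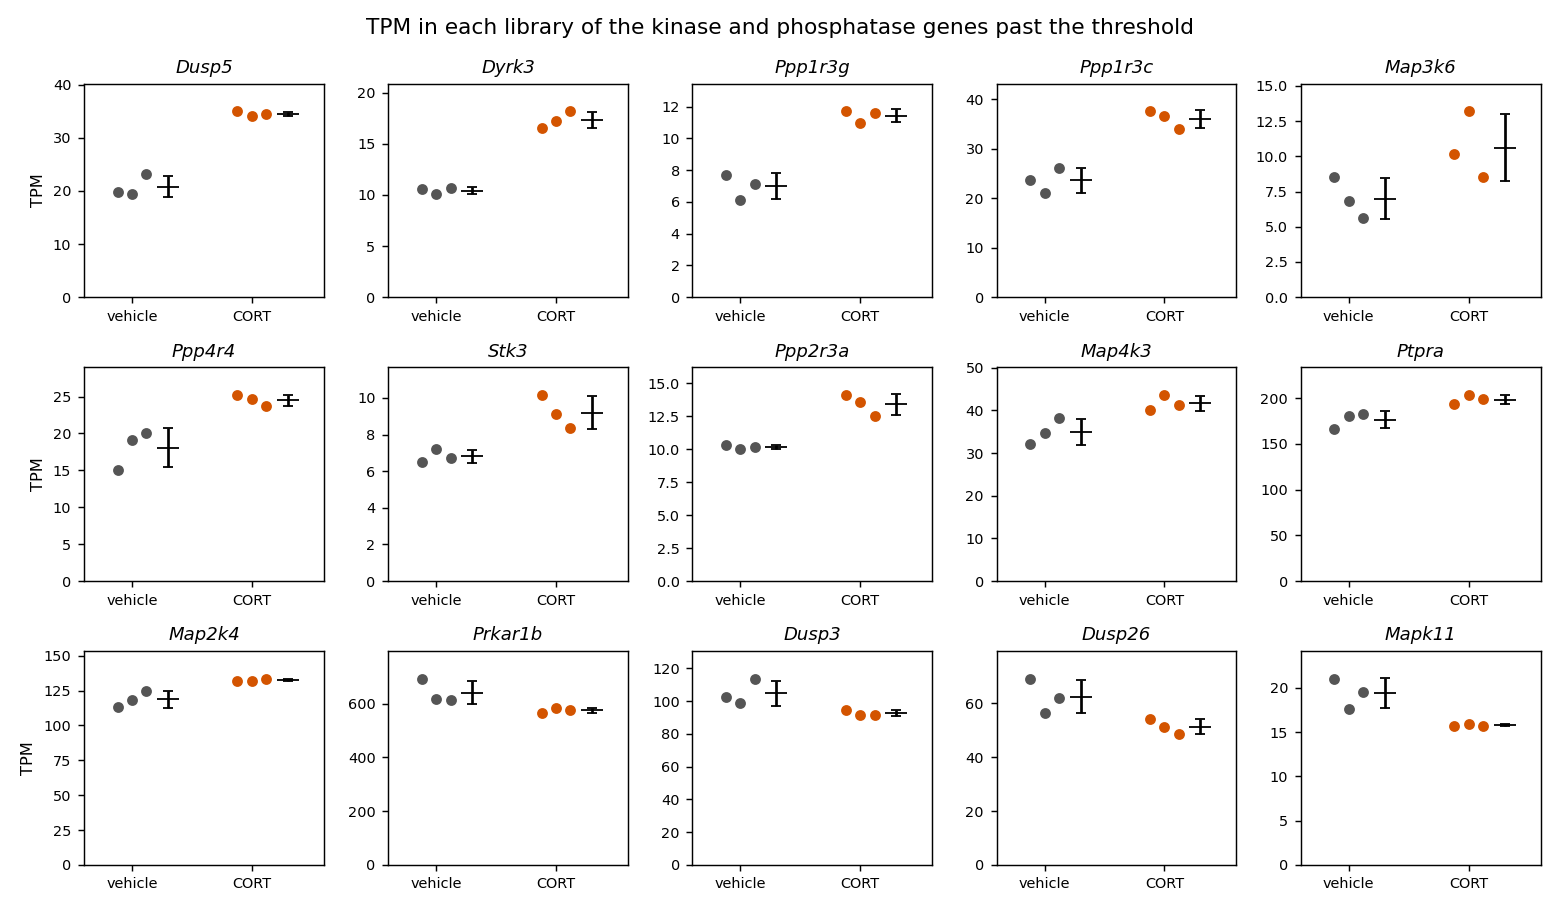
TPM (y axis, from 0, a scale per panel) of the 15 genes past the threshold in each vehicle (grey) and CORT (orange) library, with the mean and bars for ± 1 SD (n = 3). The groups are separate in every panel but that of Map3k6, and the separation is widest for Dusp5, Dyrk3, Ppp1r3g and Ppp1r3c.

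Calmodulin-dependent kinases carry the calcium signal of synaptic activity, and 4 of 14 annotated genes were in the table. None passed the test, where 50.6% of all tested genes did. All 4 values were negative as deposited, although that of Camk2n2 turned to 0.056 after the GC correction, and the groups overlapped in all 4. Camk2d, a catalytic subunit of calmodulin-dependent kinase II, measured 42.8, 24.6 and 36.6 TPM in vehicle and 28.1, 26.2 and 29.3 TPM in CORT libraries (-0.27, SE 0.176, limma adjusted p = 0.177). Its vehicle library 2 lay below every CORT library, and without that library the gene passed (-0.49, limma adjusted p = 0.0107). Camk2g, another subunit, measured 135, 126 and 134 TPM against 137, 98.7 and 109.7 TPM (-0.20, SE 0.106, limma adjusted p = 0.109), with CORT library 1 the highest of all 6. Camk2g passed without CORT library 1 (-0.34, limma adjusted p = 0.0126) and Camk1 without CORT library 3 (-0.29, limma adjusted p = 0.0439). Camk1, which acts downstream of a calmodulin-dependent kinase kinase, gave -0.21 and Camk2n2, an inhibitor of calmodulin-dependent kinase II, gave -0.16 with all libraries.

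Of the protein kinase A, C, D and G and AMPK genes, 3 of 29 were in the table. Past the threshold were 33.3% of the 3, against 50.6% of all tested genes. Prkar1b, a regulatory subunit of protein kinase A found in neurons, was the most abundant of the 45 genes and fell. It measured 691, 618 and 613 TPM in vehicle and 566, 582 and 576 TPM in CORT libraries. All CORT libraries lay below the lowest vehicle library, and vehicle library 1 stood above the other 2 (-0.16, SE 0.055, limma adjusted p = 0.0438). The call was kept in 6 of 14 alternatives. Without vehicle library 1 the value was -0.10 (limma adjusted p = 0.102), and with quantile normalization it was -0.029. Prkca, a calcium-dependent protein kinase C, measured 56.7, 65.0 and 72.7 TPM against 71.6, 74.7 and 73.6 TPM (0.18, limma adjusted p = 0.0921), and Prkcz, an atypical one, gave -0.07. Of 43 genes of calcium and cAMP signalling outside these families, 8 were in the table, 1 rose, 2 fell and 5 did not pass. The share past the threshold was 37.5%, against 50.6% of all tested genes. Adcy8, a calcium-stimulated adenylyl cyclase, fell from 8.22 ± 0.140 to 5.11 ± 0.528 TPM (SD, n = 3), Pkig, an inhibitor of protein kinase A, gave -0.23 and Pde1a, a calmodulin-dependent phosphodiesterase, gave 0.24.

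Cyclin-dependent kinases and the related Dyrk kinases had 6 of 31 annotated genes in the table, and Dyrk3 alone passed. That is 16.7% of the 6, against 50.6% of all tested genes. Dyrk3, which dissolves membraneless condensates such as stress granules, measured 10.6, 10.1 and 10.6 TPM in vehicle and 16.6, 17.3 and 18.2 TPM in CORT libraries. Both groups were tight and far apart, and the rise was 66.2% (0.68, SE 0.086, limma adjusted p = 0.000722). The call was kept under all 14 alternatives, with a largest adjusted p of 0.00446.

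The other genes of this group serve transcription and neurons rather than the cell cycle. Cdk5r2 (p39) and Cdk5r1 (p35) encode the activators of the neuronal kinase Cdk5. Cdk5r2 measured 258, 231 and 233 TPM against 219, 218 and 216 TPM (-0.14, SE 0.056, limma adjusted p = 0.0550), and its value turned to 0.076 after the GC correction. Cdk5r1 gave -0.04 with overlapping groups. Cdk19, a kinase of the Mediator complex, gave -0.21 (limma adjusted p = 0.0619), with 16.7, 15.9 and 17.8 TPM against 13.8, 14.7 and 14.7 TPM. Cdk19 passed as lower in 4 of 14 alternatives, with the GC correction at -0.36 (limma adjusted p = 0.00607). Cdk12, a kinase of transcription elongation, gave 0.21 and Cdk16 -0.10.

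Stk3 (MST2), a kinase of the Hippo pathway, rose, and the other 3 Stk genes and the single casein kinase gene did not pass, out of 22 and 10 annotated. Past the threshold were 25.0% of the Stk genes, against 50.6% of all tested genes. Stk3 measured 6.50, 7.19 and 6.73 TPM in vehicle and 10.1, 9.10 and 8.36 TPM in CORT libraries (0.38, SE 0.105, limma adjusted p = 0.0201). It kept its call in 10 of 14 alternatives and had the lowest transcript GC content of the 11 genes that rose (38.4%). After the GC correction its value was 0.15 (limma adjusted p = 0.197). Stk38l (NDR2) gave 0.24, Stk39 (SPAK, a kinase of ion cotransporters) 0.16 and Stk11 (LKB1, the kinase upstream of AMPK) -0.11, which turned to 0.025 after the GC correction. Csnk1g3, a membrane-bound casein kinase 1, measured 22.0, 20.9 and 24.3 TPM against 27.9, 25.9 and 25.0 TPM (0.22, SE 0.086, limma adjusted p = 0.0552).

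Protein phosphatase 1 had 4 of 45 annotated genes in the table, and both that rose were glycogen-targeting subunits. Ppp1r3c (also called PTG) and Ppp1r3g bring the phosphatase to glycogen, where it activates glycogen synthase. Ppp1r3c measured 23.8, 21.1 and 26.2 TPM in vehicle and 37.6, 36.6 and 34.0 TPM in CORT libraries, a rise of 52.1% (0.59, SE 0.092, limma adjusted p = 0.00196). Ppp1r3g measured 7.73, 6.10 and 7.15 TPM against 11.7, 10.99 and 11.6 TPM, a rise of 63.5% (0.64, SE 0.107, limma adjusted p = 0.00253). In both genes the lowest CORT library was above the highest vehicle library. Both calls were kept under all 14 alternatives. Their summed TPM was 31.5, 27.2 and 33.3 in vehicle and 49.3, 47.6 and 45.6 in CORT libraries, of which Ppp1r3c made up the greater part in every library.

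The catalytic subunit Ppp1cc did not pass (-0.13, SE 0.057, limma adjusted p = 0.0800), with 130.3, 131 and 128 TPM against 115, 116 and 126 TPM, but passed as lower after the GC correction (-0.22, limma adjusted p = 0.0269). Ppp1r9a (neurabin), which ties the phosphatase to actin in dendritic spines, gave 0.18 (limma adjusted p = 0.0907). The vehicle libraries of Ppp1r9a were spread from 33.0 to 41.4 TPM, and its CORT libraries lay between 41.8 and 42.5 TPM.

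The promoter windows of the pair are shown because these subunits share a role and moved the same way; capitals mark the motifs named for Dusp5.
Ppp1r3c at chr19:36736555-36736854, minus strand: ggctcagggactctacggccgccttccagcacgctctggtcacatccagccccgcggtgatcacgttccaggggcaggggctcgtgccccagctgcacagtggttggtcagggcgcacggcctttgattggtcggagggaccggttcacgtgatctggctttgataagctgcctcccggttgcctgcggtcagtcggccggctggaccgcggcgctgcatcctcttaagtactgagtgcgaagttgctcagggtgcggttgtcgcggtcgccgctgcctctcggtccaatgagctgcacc
Ppp1r3g at chr13:35967656-35967955, plus strand: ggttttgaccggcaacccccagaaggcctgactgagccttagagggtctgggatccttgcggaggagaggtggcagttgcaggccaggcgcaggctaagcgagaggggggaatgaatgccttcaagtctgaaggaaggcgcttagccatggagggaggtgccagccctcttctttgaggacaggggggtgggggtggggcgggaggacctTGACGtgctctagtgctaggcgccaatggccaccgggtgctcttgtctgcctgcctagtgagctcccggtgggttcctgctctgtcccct
The Ppp1r3c window held none of the motifs and the Ppp1r3g window 1 TGACG. No match says only that these letters are not in the window.

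Among PP2A genes 3 of 16 were in the table (33.3% past the threshold, against 50.6% of all tested genes) and Ppp2r3a rose. This regulatory subunit binds calcium. It measured 10.3, 9.98 and 10.2 TPM in vehicle and 14.1, 13.6 and 12.5 TPM in CORT libraries (0.37, SE 0.090, limma adjusted p = 0.0137). The vehicle libraries were nearly equal and every CORT library lay above them. The call was kept in 13 of 14 alternatives and lost with the GC correction (0.16, limma adjusted p = 0.141). Ppp2r1a, the scaffold subunit and the second most abundant of the 45 genes, measured 620.5, 586 and 619 TPM against 575, 578 and 576 TPM (-0.08, SE 0.044, limma adjusted p = 0.130), and its value turned to 0.079 with quantile normalization. Ppp2r5a, a targeting subunit, gave -0.17 with overlapping groups and passed as lower after the GC correction (-0.26, limma adjusted p = 0.0266). None of the 5 annotated calcineurin genes was in the table.

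PP4 to PP6 had 3 of 11 annotated genes in the table, with 33.3% past the threshold against 50.6% of all tested genes. Ppp4r4, a regulatory subunit of PP4, rose. It measured 15.1, 19.1 and 20.0 TPM in vehicle and 25.2, 24.6 and 23.7 TPM in CORT libraries (0.43, SE 0.108, limma adjusted p = 0.0154). Vehicle library 1 was the lowest, and the 3 CORT libraries stood above all vehicle libraries. The call was kept under all 14 alternatives, with a largest adjusted p of 0.0405. Ppp4r2, another PP4 subunit, gave 0.11 and turned to -0.097 after the GC correction, and Ppp6r1, a subunit of PP6, gave -0.12. The window of Ppp4r4 is shown because it was 1 of 2 genes that rose whose window held TGTTCT, the other being Map2k4.
Ppp4r4 at chr12:103532315-103532614, plus strand: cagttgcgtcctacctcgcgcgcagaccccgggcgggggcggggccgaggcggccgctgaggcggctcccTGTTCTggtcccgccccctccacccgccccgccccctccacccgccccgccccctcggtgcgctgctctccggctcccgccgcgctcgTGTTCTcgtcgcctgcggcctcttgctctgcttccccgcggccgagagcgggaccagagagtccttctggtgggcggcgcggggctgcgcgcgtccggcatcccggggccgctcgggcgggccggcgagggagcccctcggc
It held 2 copies of TGTTCT in a window of 79.7% GC. TGTTCT on either strand was present in 8 of the 51 windows (15.7%), against 12.6% of the windows of listed genes and 19.0% of all windows. It stood in the windows of 7 of the 39 genes, of which 2 rose, none fell and 5 did not pass. TGACG on either strand was present in 22 of the 51 windows (43.1%), against 26.3% of listed and 20.8% of all windows, and so in 21 genes, of which 5 rose, 2 fell and 14 did not pass. The 51 windows also had a higher median GC content, 66.7% against 62.0% of listed and 52.7% of all windows, and the part of base composition in this share was not tested.

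Tyrosine phosphatases had 4 of 38 annotated genes in the table. All 4 values were positive as deposited and under every scaling, and 1 passed (25.0%, against 50.6% of all tested genes). Ptpra, a receptor phosphatase that activates Src family kinases, measured 166, 181 and 182 TPM in vehicle and 193, 203 and 198 TPM in CORT libraries (0.17, SE 0.056, limma adjusted p = 0.0357). The groups did not overlap, and the call was kept in 7 of 14 alternatives. Ptprz1, a receptor phosphatase of astrocytes and oligodendrocyte precursors, measured 37.4, 36.7 and 45.6 TPM against 49.0, 45.8 and 45.1 TPM (0.23, SE 0.092, limma adjusted p = 0.0621). Vehicle library 3 of Ptprz1 lay among the CORT libraries, and without it the gene passed (0.32, limma adjusted p = 0.0153). Ptprj gave 0.17, with groups that did not overlap, and Ptpn11 (SHP2, which carries growth factor signals to Ras) gave 0.14, with groups that did.

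Kinases and phosphatases outside these symbol stems were counted from lists. Of 102 other serine/threonine kinase genes, 34 were in the table, and 9 rose, 6 fell and 19 did not pass. Sgk3 and Sgk1, of the serum- and glucocorticoid-regulated kinase family, measured 3.14 ± 0.683 against 16.4 ± 3.37 TPM and 83.1 ± 27.5 against 192 ± 37.4 TPM (SD, n = 3). Their changes of 2.07 and 1.23 were larger than that of any of the 45 genes. Of 70 tyrosine kinase genes, 18 were in the table, and 3 rose, 7 fell and 8 did not pass, with a median of -0.24. Erbb3 (-1.24), Fgfr2 (-0.74), Ephb3 (-0.68) and Tyro3 (-0.41), all receptors at the cell surface, had the smallest p of that list and fell. Of 60 other phosphatase genes, 13 were in the table, and 3 rose, 2 fell and 8 did not pass. Ptpdc1 rose by 0.69. The share past the threshold was 44.1% of the other serine/threonine kinases, 55.6% of the tyrosine kinases and 38.5% of the other phosphatases. Over all tested genes it was 50.6%.

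Transcript GC content moved with the fold change. The value was positive in 8 of 10 of the kinase and phosphatase genes with under 45% GC, in 11 of 23 between 45% and 55% and in 3 of 12 at 55% or more. The correlation over the 45 genes was Spearman rho = -0.25 and Pearson r = -0.22, as a description over genes that share the same 6 libraries, and rho was -0.36 over all tested genes. The median GC content was 46.2% in genes that rose and 56.0% in genes that fell. Dusp5 (56.7%), Ppp1r3g (57.6%) and Map3k6 (59.5%) rose in spite of a high GC content, and their values were 0.78, 0.74 and 0.67 after the correction.

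**Figure D3:**
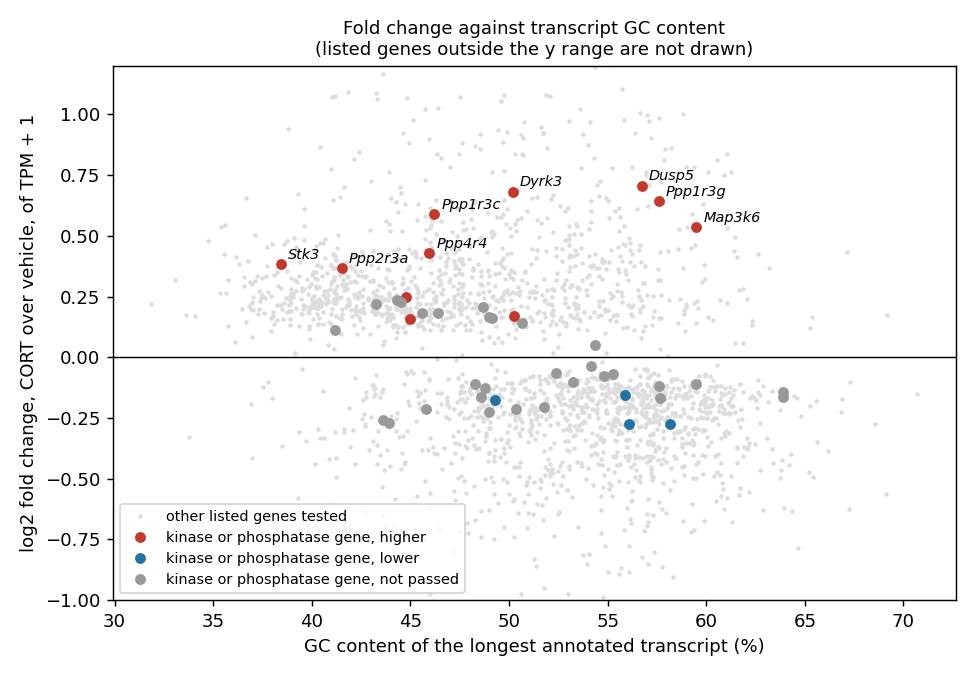
Log2 fold change of TPM + 1, CORT over vehicle (y axis), against the GC content in percent of the longest annotated transcript (x axis), for the 45 kinase and phosphatase genes (large points, coloured by call) and the other genes tested (small points; those beyond the y range are not drawn). The large points tend downward from left to right, with Dusp5, Ppp1r3g and Map3k6 at the upper right.

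Marker genes of several cell types moved with the treatment, not all in 1 direction. The share past the threshold over all tested genes, for the counts below, was 50.6%. The summed TPM of 7 of 12 microglial markers in the table was 190.0 to 210.4 in vehicle and 125 to 159 in CORT libraries. Of these 7, 5 fell, 1 did not pass and Siglech rose (0.41, limma adjusted p = 0.0199). The sum was 93.8 to 99.9 and 53.0 to 55.6 for 7 of 12 endothelial markers (5 fell, 2 did not pass), and 1635 to 1709 and 1492 to 1511 for 5 of 10 astrocyte markers (2 fell, 3 did not pass). For oligodendrocyte precursors (3 of 10) it was 232 to 269 and 203 to 212, for mural cells (4 of 10) 103 to 118 and 93.2 to 98.0, and for hippocampal excitatory neurons (6 of 12) 428 to 487 and 375 to 390.2. Among the mural markers 1 fell and Rgs5 rose (0.27, limma adjusted p = 0.0380). Among the excitatory neuron markers 2 fell (Wfs1 and C1ql2), 4 did not pass and 3 values were positive (Zbtb20 0.32, Spink8 0.28 and Dsp 0.18), with a median of -0.01, so the lower sum was carried by its more abundant genes. The sum was 58.9 to 73.6 and 45.2 to 58.1 for neighbouring brain regions (5 of 11). For inhibitory neurons (2 of 10) it was 1643 to 1715 and 1473 to 1551, nearly all of it from Cck (means 1636 and 1470 TPM). Reln, the other inhibitory neuron marker in the table, did not pass. Neurons in general were read from Syp alone (1 of 10), at 1660.2 to 1794 and 1530 to 1539. Most markers of both neuron lists were absent from the table and were not analysed. The single listed markers of oligodendrocytes (478 to 648 and 628 to 884.5) and of choroid plexus (1.33 to 3.20 and 2.10 to 22.5) were the ones whose ranges reached higher in CORT libraries. None of 8 blood markers was in the table, and no marker in the table was at 0 in all libraries. Among the oligodendrocyte precursor markers Cspg5, which made up most of the sum, and Sox10 fell. Vcan did not pass, and its value was positive (0.56, limma adjusted p = 0.306). Ptprz1 is also a gene of astrocytes and oligodendrocyte precursors, and its value was positive while the sums of these 2 lists were lower. The part of cell composition in the kinase and phosphatase values was not tested.

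Many of the smaller calls were lost when a single library was left out, which also leaves the test fewer replicates. The value of Map2k4 was 0.157 with all libraries and 0.161, 0.158 and 0.152 without CORT library 1, 2 or 3. Its call was lost each time. The part of the smaller group size in such losses was not tested. Vehicle library 1 was the vehicle library farthest from the CORT mean for 26 of the 45 genes, library 2 for 12 and library 3 for 7. Over all tested genes, 579 were higher and 554 lower with all libraries. These counts were 338 and 282 without vehicle library 1, 381 and 464 without vehicle library 2 and 729 and 458 without vehicle library 3. They were 366 and 349, 341 and 303, and 383 and 334 without CORT library 1, 2 or 3. Among the 45 genes, 7 were higher and none was lower without vehicle library 1. Without CORT library 2, 6 were higher and none was lower. Without CORT library 1, 6 were higher and 2 lower, and without CORT library 3, 8 were higher and 2 lower, of which none was among the 4 lower genes found with all libraries. Without vehicle library 3, 17 were higher and 4 lower, and the 7 added to the higher genes were Csnk1g3, Ppp1r9a, Prkca, Ptpn11, Ptprj, Ptprz1 and Stk38l (0.20 to 0.32, limma adjusted p = 0.0153 to 0.0417). Dusp5, Dyrk3, Ppp1r3c, Ppp1r3g and Ppp4r4 were higher in each of these fits and under all other alternatives. Map2k4, Map4k3 and Prkar1b lost their calls without vehicle library 1 or 2 or any CORT library, with limma adjusted p of 0.0754 to 0.106, 0.0550 to 0.107 and 0.0521 to 0.102. Ptpra lost it without vehicle library 1 or any CORT library (0.0560 to 0.109), and Dusp3 without vehicle library 1 or 3 or any CORT library (0.0745 to 0.1197), by the same test. Stk3 lost it without vehicle library 1 or CORT library 1 or 2 (0.0537 to 0.0666), and Map3k6 without vehicle library 2 or 3 or CORT library 1 or 2 (0.0670 to 0.0996). Ppp2r5a passed without vehicle library 2 (-0.26, limma adjusted p = 0.0332). With 3 libraries against 3, an exact permutation test of a single gene cannot go below a two-sided p of 0.1.

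**Figure D4:**
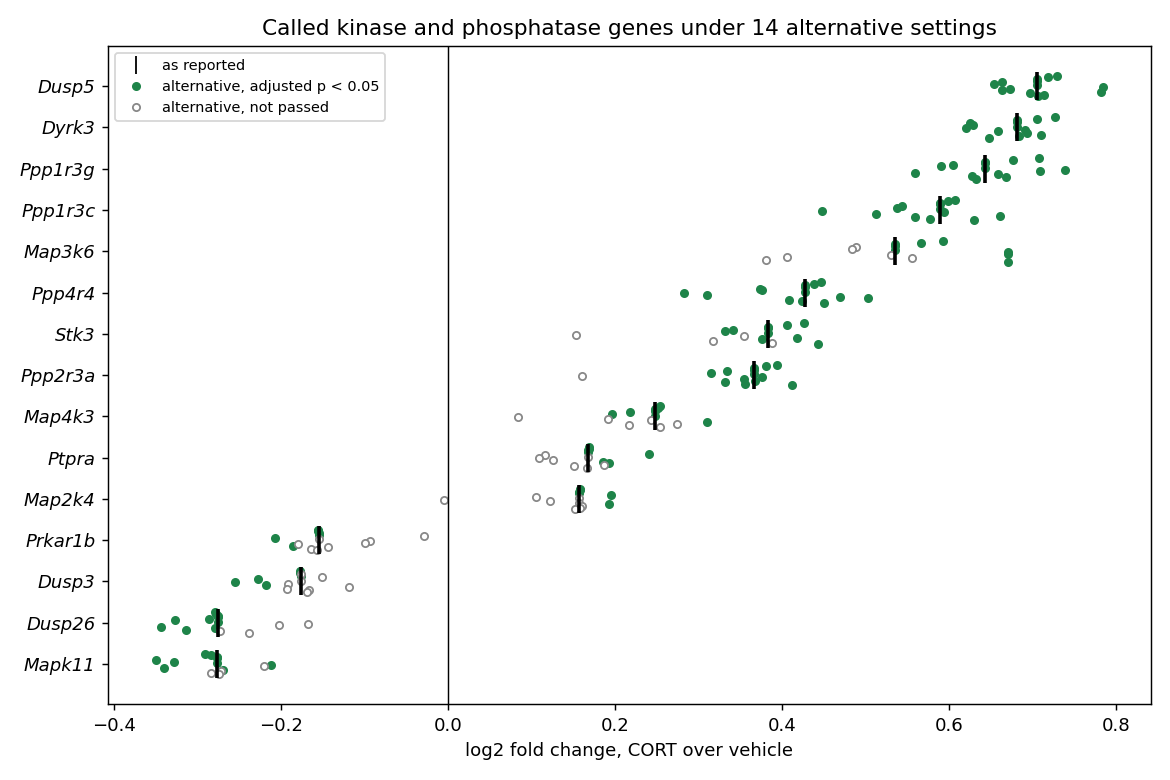
Log2 fold change, CORT over vehicle (x axis), of the 15 genes past the threshold (rows) as reported (bar) and under 14 alternative settings (filled green, limma adjusted p under 0.05; open, not passed). Dusp5, Dyrk3, Ppp1r3g, Ppp1r3c and Ppp4r4 have filled points only, while each of the 4 genes that fell has open points.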

How the data were processed

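RNA-seq was run on the hippocampus of 3 mice given CORT and 3 given vehicle (TruSeq libraries, paired-end NovaSeq reads). The authors used fastp for trimming. HISAT2, StringTie, RSEM and the build GRCm39 appear in the processing notes of the submitters, with no versions. TPM per library was deposited by the authors, and their methods give that unit. Also in the table are a p-value by the authors, under 0.05 in all 2404 rows, and their fold change with its log2, which were not used. Control columns carry a wild-type name and were taken as vehicle. Column numbers are not tied to sample titles, and read depth is unknown.

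The test was limma 3.58.1 in R 4.3.3 on log2(TPM + 1), with trend and robust moderation, over 2241 genes that reached a TPM of 1 in 3 or more libraries, Benjamini-Hochberg adjusted at 0.05. The fit was tested on simulated data. The 45 genes and all lists were chosen with earlier results of these data known. The rule for named genes took the 10 largest rises and falls past the threshold without overlap, and in each role group the 2 smallest p and the highest TPM. List genes came from the 4 smallest p of their list. Arc was named outside this rule, after its value was seen. The remaining members were named after their values were seen, to account for all 45. Alternatives changed the pseudocount (0.1 or 0.5), the filter, the scaling, the eBayes options, a GC spline with 4 degrees of freedom (GC content known for 99.9% of genes tested) or left out 1 library. The scalings and the spline were fitted over listed genes only. The RefSeq tables gave promoter windows for 39 of 45 genes. The samples are labelled as biological replicates, and p-values measure the spread between them.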

Additional observations from a re-analysis of the deposited data

How the results depend on the processing

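The count of higher genes, 11, was 6 after the GC correction, and that of lower genes, 4, was 8 after it and 9 with median centring. Over all tested genes, 579 higher and 554 lower became 409 and 486 after the GC correction and 485 and 772 with median centring. Leaving out 1 library gave 6 to 17 higher and 0 to 5 lower genes. Pseudocounts of 0.1 and 0.5 and the stricter filter changed no call, and without a filter Dusp3 alone was lost. After the GC correction 6 genes joined the lower calls (Cdk19, Dusp11, Dusp6, Map3k12, Ppp1cc and Ppp2r5a), and the sign turned for Cdk5r2 (0.076), Map2k4 (-0.0048), Stk11 (0.025), Camk2n2 (0.056) and Ppp4r2 (-0.097). It turned for Ppp2r1a with quantile normalization (0.079), and for Map3k4 with quantile normalization (-0.0069), with median centring (-0.0023) and without vehicle library 1 (-0.0057). The cause was not tested. No paired analysis was possible because the groups share only 1 replicate number in the labels and the table's columns are not tied to the numbered samples. TPM without counts leaves the precision due to depth unknown, and genes outside the table were not analysed here.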
